A study of Mus musculus with 4 samples.

Results

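Platelets are small cells without a nucleus that are shed by megakaryocytes, and the messenger RNA they carry comes from the megakaryocyte. They store chemokines in alpha granules, hold to damaged vessel walls through the GPIb-IX receptor complex and bind fibrinogen through the integrin made of the Itga2b and Itgb3 chains. To describe the platelet signal in the blood of Nar-treated aging mice, 10 genes of this programme were taken by their symbols, Pf4, Ppbp, Gp1ba, Gp1bb, Gp9, Itga2b, Itgb3, Clec1b, Treml1 and Tubb1. All 10 had values in every library, among 23136 genes listed and 17823 with values, and all 10 passed the filter, a mean of 0.5 FPKM or more, that left 5339 genes for testing. FPKM counts fragments per length of transcript and per mapped fragments of the library, so levels can be compared between genes of a library. Between libraries they also depend on what the most abundant genes take.

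The data are 4 RNA-seq libraries of blood from C57BL/6 mice, which the methods give as 12 months old and the labels call adult. The 2 Nar libraries come from mice given naringenin, a flavonoid, at 20 mg/kg through the tail vein for 30 days, and the 2 Ctrl libraries from mice given phosphate-buffered saline for the same time. Libraries are numbered 1 and 3 in each group, and nothing states whether each holds 1 animal, so p-values measure only the spread between these libraries. The summed FPKM ran from 1477720 to 1582820 per library, of which haemoglobin genes took 92.6% (Ctrl 3) to 96.4% (Nar 3). Over all tested genes the log2 fold change, Nar minus Ctrl, had a median of -1.07, and it was -0.61 when haemoglobin genes were taken out before scaling. The reads behind each value are not known.

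Ctrl 3 stood apart from the other libraries in platelet genes. The 10 genes together came to 859 and 2825 FPKM in Ctrl 1 and Ctrl 3 and to 780 and 561 FPKM in Nar 1 and Nar 3. As a share of the non-haemoglobin FPKM they made up 1.15%, 2.58%, 1.18% and 0.985% in the same order. On that share Ctrl 1 lay between the 2 Nar libraries, and Ctrl 3 lay more than 2-fold above all of them. Results are therefore given with and without Ctrl 3. In RNA of bulk blood, fewer platelets and less RNA per platelet cannot be told apart.

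**Figure D1:**
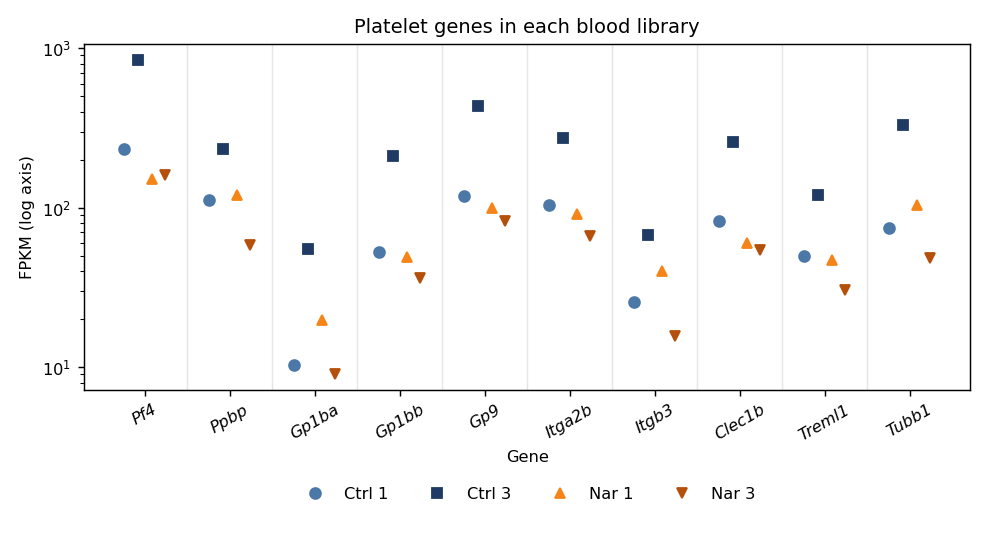
FPKM (log axis) of each of the 10 platelet genes in the 4 blood libraries, 1 point per library. Ctrl 3 is the highest point of every gene, from 55.3 FPKM for Gp1ba to 846 FPKM for Pf4. Nar 3 lies below Ctrl 1 in all 10 genes, and Nar 1 lies above Ctrl 1 in 4.

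The genes lie on 6 chromosomes of the mouse genome (GRCm38, the build named in the submitters' processing notes, with positions from GENCODE M21). The chemokine genes are neighbours on the plus strand of chromosome 5, Ppbp at chr5:90768518-90770063 and Pf4 at chr5:90772435-90773383, with 2371 bases between them. Gp1ba lies at chr11:70639122-70642036, Gp1bb at chr16:18620317-18622403, Gp9 at chr6:87778072-87779768, Itga2b at chr11:102453297-102470122 and Itgb3 at chr11:104608000-104670476. Clec1b lies at chr6:129397297-129409335, Treml1 at chr17:48359916-48367176 and Tubb1 at chr2:174450695-174457882. Gp1bb and Itga2b are on the minus strand and the others on the plus strand. Clec1b overlaps Clec9a on the same strand, which was listed at no more than 0.09 FPKM in any library.

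Promoters of 300 bases were found for 9 of the 10 genes in RefSeq (GRCm38.p6). They are shown for the neighbouring chemokine genes, whose products are both stored in alpha granules, and for Clec1b, because Pf4 and Clec1b are the members whose promoters hold AGATAA. Each runs 5′ to 3′ on the plus strand and spans the start of the gene. Capitals mark AGATAA, a form of the motif read by GATA factors, and GGAAG, the core read by ETS factors, on either strand, and no marked stretches overlap.
Pf4, chr5:90772185-90772484: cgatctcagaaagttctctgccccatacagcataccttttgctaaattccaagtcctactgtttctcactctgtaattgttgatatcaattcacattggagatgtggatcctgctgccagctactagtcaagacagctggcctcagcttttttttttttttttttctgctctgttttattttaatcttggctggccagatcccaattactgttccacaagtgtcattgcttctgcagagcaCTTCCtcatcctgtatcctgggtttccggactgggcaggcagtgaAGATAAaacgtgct
Ppbp, chr5:90768268-90768567: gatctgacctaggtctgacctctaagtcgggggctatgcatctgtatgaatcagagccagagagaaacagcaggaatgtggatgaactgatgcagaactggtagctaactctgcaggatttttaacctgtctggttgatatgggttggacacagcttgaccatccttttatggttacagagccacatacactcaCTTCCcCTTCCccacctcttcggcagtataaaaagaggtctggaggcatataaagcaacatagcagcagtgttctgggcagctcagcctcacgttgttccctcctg
Clec1b, chr6:129397047-129397346: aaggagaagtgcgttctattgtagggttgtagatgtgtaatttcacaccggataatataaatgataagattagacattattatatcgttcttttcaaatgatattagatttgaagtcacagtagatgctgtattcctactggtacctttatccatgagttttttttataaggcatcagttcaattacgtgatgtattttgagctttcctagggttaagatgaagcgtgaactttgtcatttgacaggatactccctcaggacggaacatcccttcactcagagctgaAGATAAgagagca
AGATAA was found in 2 of the 9 promoters, against 11.2% of the 32851 promoters in the table, and GGAAG in 8 of 9, against 71.4%. These are matches of letters, not binding sites, and other forms of the motif read by GATA factors were not searched.

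The platelet chemokine genes are Pf4 and Ppbp. Pf4, the most abundant of the 10, encodes platelet factor 4, which is released from alpha granules on activation. It stood at 233 and 846 FPKM in Ctrl 1 and Ctrl 3 and at 150 and 161 FPKM in Nar 1 and Nar 3. Each Nar library lay under each control, and they were within 1.07-fold of each other, whereas Ctrl 3 was 3.64-fold above Ctrl 1. The log2 fold change was -1.51 (standard error 0.61, 95% interval -2.90 to -0.13, limma adjusted p = 0.0709), the lowest of the 10. Without Ctrl 3 it was -0.58, a difference of less than 2-fold.

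Ppbp encodes the precursor of a chemokine that attracts neutrophils. It was listed at 111 and 234 FPKM in Ctrl 1 and Ctrl 3 and at 119 and 58.0 FPKM in Nar 1 and Nar 3. The groups overlapped, since Nar 1 lay above Ctrl 1. The log2 fold change was -0.95 (standard error 0.58, limma adjusted p = 0.181), and without Ctrl 3 it was -0.42. Ppbp had the smallest excess of the 10 in Ctrl 3 over Ctrl 1, at 2.11-fold.

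The GPIb-IX complex is the receptor by which platelets hold to von Willebrand factor, and the chains described here form its core. Gp9, its small GPIX chain, had 118 and 432 FPKM in Ctrl 1 and Ctrl 3 and 99.4 and 81.9 FPKM in Nar 1 and Nar 3. Gp1bb, the beta chain of GPIb, had 52.6, 209, 49.2 and 36.4 FPKM in the same order. In both genes Ctrl 3 was far above the other libraries, by 3.67-fold and 3.98-fold over Ctrl 1, and both Nar libraries lay below Ctrl 1, with Nar 3 at 0.696 and 0.691 of its level. Their log2 fold changes were alike, at -1.32 (standard error 0.64, limma adjusted p = 0.109) for Gp9 and -1.31 (standard error 0.68, limma adjusted p = 0.128) for Gp1bb, and without Ctrl 3 they were -0.38 and -0.31. Gp1bb overlaps Sept5 on the same strand, so reads of the shared stretch are uncertain, but Sept5 was listed at no more than 1.18 FPKM in any library.

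Gp1ba, the alpha chain that binds von Willebrand factor, was the least abundant of the 10. It was listed at 10.3 and 55.3 FPKM in Ctrl 1 and Ctrl 3 and at 19.6 and 9.07 FPKM in Nar 1 and Nar 3. Nar 1 was 1.92-fold above Ctrl 1 and Nar 3 lay just below it, so the groups overlapped. The excess of Ctrl 3 over Ctrl 1 was the largest of the 10, at 5.39-fold. The log2 fold change was -0.83 (standard error 0.79, limma adjusted p = 0.37), and without Ctrl 3 its sign turned, to 0.38.

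Itga2b and Itgb3 encode the integrin chains that together bind fibrinogen and link platelets to each other. Itga2b had 103 and 272 FPKM in Ctrl 1 and Ctrl 3 and 91.5 and 66.2 FPKM in Nar 1 and Nar 3, with both Nar libraries below both controls. Itgb3 had 25.5, 67.4, 39.8 and 15.6 FPKM, and here Nar 1 lay above Ctrl 1. Ctrl 3 exceeded Ctrl 1 by nearly the same factor in both, 2.64-fold. The log2 fold change was -1.11 for Itga2b (standard error 0.58, limma adjusted p = 0.131) and -0.73 for Itgb3 (standard error 0.67, limma adjusted p = 0.351), and without Ctrl 3 they were -0.41 and -0.03.

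Clec1b encodes a lectin-like receptor that activates platelets when it meets podoplanin. It stood at 82.4 and 256 FPKM in Ctrl 1 and Ctrl 3 and at 60.1 and 54.3 FPKM in Nar 1 and Nar 3. Here too each Nar library lay under each control, and the log2 fold change was -1.34 (standard error 0.61, limma adjusted p = 0.0945). Treml1 encodes a receptor of alpha granules that reaches the surface of activated platelets. It was listed at 49.9, 121, 46.8 and 30.4 FPKM in the same order, again with both Nar libraries below both controls but with Nar 1 close to Ctrl 1. Its log2 fold change was -1.04 (standard error 0.59, limma adjusted p = 0.155), and without Ctrl 3 the values were -0.53 for Clec1b and -0.40 for Treml1.

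Tubb1 encodes the beta-tubulin isotype that forms the ring of microtubules at the platelet's edge. It had 74.0 and 332 FPKM in Ctrl 1 and Ctrl 3 and 104 and 48.1 FPKM in Nar 1 and Nar 3. The groups overlapped, with Nar 1 above Ctrl 1 and Ctrl 3 4.49-fold above Ctrl 1. The log2 fold change was -1.14 (standard error 0.74, limma adjusted p = 0.203), and without Ctrl 3 it was -0.06. Among 8 beta-tubulin genes, Tubb1 took 67.2% and 65.5% of the summed FPKM in Ctrl 1 and Ctrl 3 and 69.4% and 61.8% in Nar 1 and Nar 3. Tubb2a was the next most abundant, at 20.9, 130, 31.9 and 18.5 FPKM, and was 6.22-fold higher in Ctrl 3 than in Ctrl 1. Of the 6 beta-tubulin genes that were tested, 0 had an adjusted p-value under 0.05 and 2 had an unadjusted one in limma, with a median log2 fold change of -1.05, which was -0.17 without Ctrl 3. The shares of all tested genes that were lower by these criteria were 39.6% and 56.5%.

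None of the 10 genes passed the test of Nar against Ctrl across all genes. With limma, 0 of 10 passed 0.05 after Benjamini-Hochberg adjustment and 1, Pf4, passed it without adjustment. Of all tested genes, 39.6% were called lower with Nar and 0.187% higher, and 56.5% were lower at an unadjusted p-value under 0.05. Without the mean-dependent trend in limma the count was also 0, against 33.5% of tested genes called lower. The 95% interval of the log2 fold change reached 0 in 9 of the 10, and every interval was wide, so that of Gp1ba ran from -2.62 to 0.96. These intervals do not show that the groups were alike. Both Nar libraries lay below both controls in 6 of the 10, against 78.3% of all tested genes, and 7 of the 10 differed by more than 2-fold between group means of log2 values, against 56.4%. The log2 fold changes ran from -1.51 to -0.73 with a median of -1.13, beside -1.07 for all tested genes. Relative to that median they ran from -0.44 (Pf4) to 0.34 (Itgb3), and 6 of the 10 were below it.

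**Figure D2:**
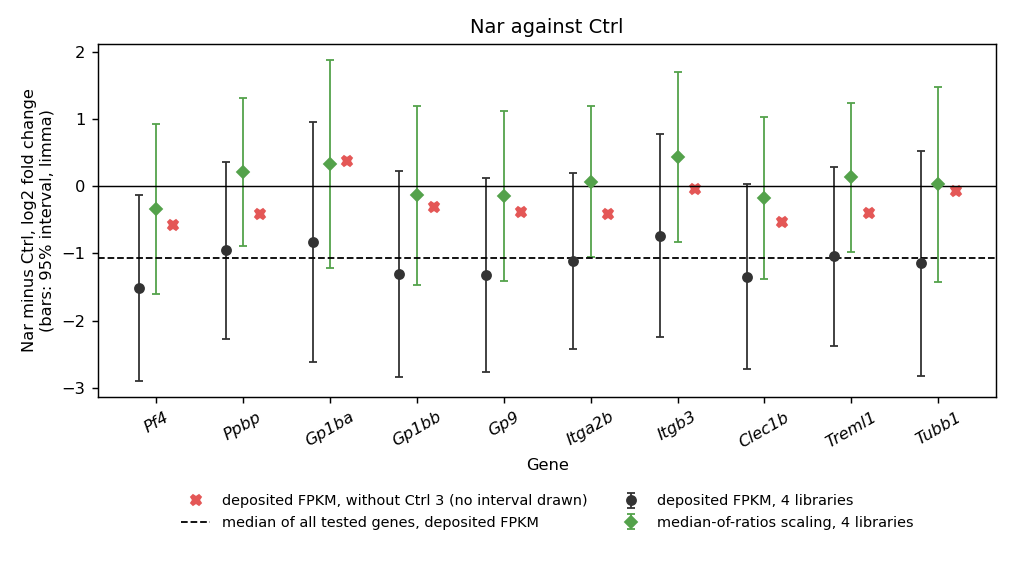
Log2 fold change, Nar minus Ctrl, of the 10 platelet genes on log2(FPKM + 0.1), with 95% intervals from limma where 4 libraries were fitted. On the deposited scale all values lie near the dashed median of all tested genes (-1.07), with median-of-ratios scaling they lie around 0, and without Ctrl 3 they run from -0.58 (Pf4) to 0.38 (Gp1ba).

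The size of the difference rested on which control was used. Without Ctrl 3, the log2 fold changes had a median of -0.39, and 0 of the 10 differed by more than 2-fold, against 47.2% of all tested genes. Without Ctrl 1, the median was -2.10 and all 10 were more than 2-fold lower, against 61.8% of tested genes. The highest of the 10 values was -1.43. With 3 libraries, 0 of the 5339 genes passed the adjusted threshold in either comparison, so the test has no bearing on single genes there, and the single control left is assumed to vary like the others. Relative to all tested genes, the platelet median was -0.05 with 4 libraries, 0.56 without Ctrl 3 and -0.91 without Ctrl 1. After median-of-ratios scaling, by which the typical gene is made equal between libraries, the median was 0.05, beside -0.0016 for all tested genes. Of the 10, 6 lay above 0 and 0 were called, against 0.599% of tested genes called lower. Both changes were also made at once, which was decided after seeing the data. All 10 then lay above 0, with a median of 0.68 and 0 called, against 0.0187% of tested genes called higher. With haemoglobin genes removed, the median of the 10 was -0.57 and 0 were called, against 4.54% of the remaining genes called lower and 0.263% higher.

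The order of the genes by FPKM was much the same in every library. Pf4 was the highest of the 10 in all 4 libraries, Gp1ba the lowest, Itgb3 the next lowest and Treml1 the one above it, with Gp1bb in place 7 throughout. The places of the remaining genes differed between libraries. Tubb1 was in place 6 in Ctrl 1 and Nar 3 and in place 3 in Ctrl 3 and Nar 1, while Ppbp was in place 3, 6, 2 and 4 in Ctrl 1, Ctrl 3, Nar 1 and Nar 3. Among all tested genes, Pf4 ranked 51 and 22 in Ctrl 1 and Ctrl 3 and 69 and 52 in Nar 1 and Nar 3.

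Ctrl 3 was the highest library for all 10 genes, against 52.7% of all tested genes. The ratio of Ctrl 3 to Ctrl 1 was above 2 in all 10, against 17.0% of tested genes, and ran from 2.11 (Ppbp) to 5.39 (Gp1ba). On the log2 scale the difference between the controls had a median of 1.75 over the 10 genes and 0.13 over all tested genes. This compares 1 library with 1 other and has no replicate. Between the Nar libraries, Nar 3 lay below Nar 1 in 9 of the 10, against 69.1% of tested genes, with Pf4 as the exception. Against Ctrl 1 alone, Nar 1 was higher in 4 genes, Ppbp, Gp1ba, Itgb3 and Tubb1, and Nar 3 was lower in all 10. Both Nar libraries lay below Ctrl 1 in 6 of the 10, against 82.2% of tested genes, and below Ctrl 3 in 10 of 10, against 90.4%. Nar 3 was the lowest library in 9 of the 10, against 63.4%.

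**Figure D3:**
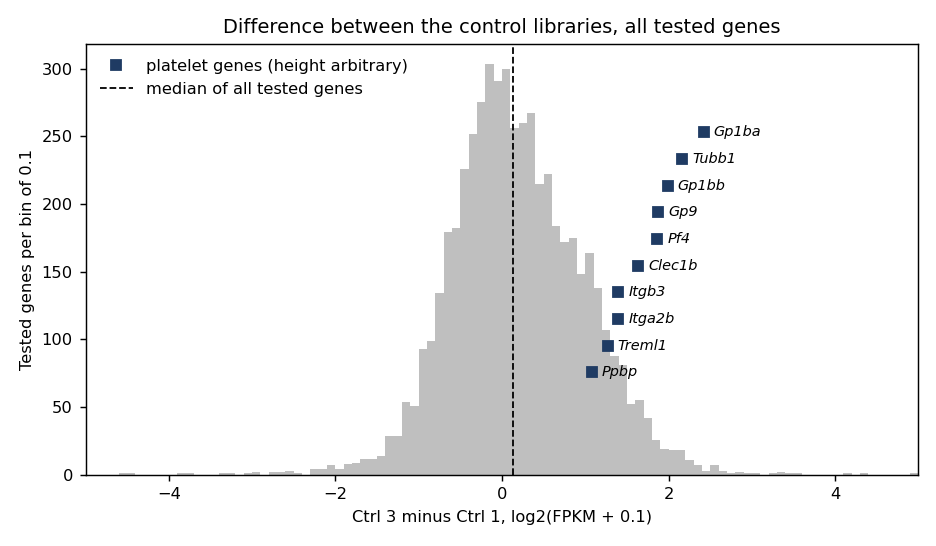
Histogram of Ctrl 3 minus Ctrl 1 on log2(FPKM + 0.1) for the 5339 tested genes, with the 10 platelet genes as squares at their own values (their height has no meaning). All 10 lie right of the dashed median of 0.13, from 1.08 for Ppbp to 2.42 for Gp1ba.

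Ratios between members of the same library do not depend on how the library is scaled. Gp1bb over Gp9 was the steadiest, at 0.447 and 0.485 in Ctrl 1 and Ctrl 3 and 0.495 and 0.444 in Nar 1 and Nar 3. Itga2b over Itgb3 was 4.05, 4.04, 2.30 and 4.25, so that Nar 1 stood below the other 3 libraries. Pf4 over Ppbp was 2.09, 3.61, 1.26 and 2.78 in the same order. Gp1ba over Gp1bb was 0.195, 0.264, 0.399 and 0.249, and Gp1ba over Gp9 was 0.0872, 0.128, 0.198 and 0.111, with Nar 1 the highest in both. Clec1b over Treml1 was 1.65, 2.12, 1.28 and 1.79. In each of the 6 ratios the groups overlapped. The exact two-sided permutation test of 2 libraries against 2 gave p-values from 0.67 to 1, where the smallest the design allows is 0.33, and 7 such comparisons, the share of Tubb1 included, leave no adjusted value under 1. The summed FPKM of the 10 genes had a mean of 1842 ± 1390 (SD, n = 2) in Ctrl and 671 ± 155 (SD, n = 2) in Nar, with an exact permutation p of 0.33. As a share of the non-haemoglobin FPKM the means were 1.87% ± 1.01 (SD, n = 2) and 1.08% ± 0.14 (SD, n = 2), and the exact permutation p was 0.67.

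**Figure D4:**
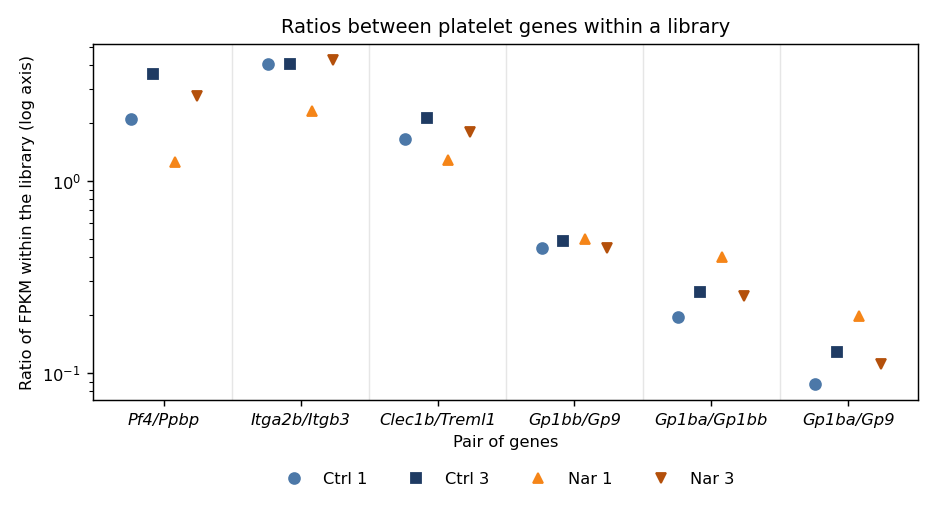
Ratio of FPKM between 2 platelet genes within each library (log axis), 1 point per library. Gp1bb over Gp9 stays between 0.444 and 0.495, while Nar 1 is the lowest point for Pf4 over Ppbp and Itga2b over Itgb3 and the highest for both Gp1ba ratios.

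A wider list held 74 other genes of platelets and megakaryocytes. Of these, 65 could be tested, and 6 were lower with Nar at an adjusted p-value under 0.05 in limma and 0 higher, beside the 39.6% of all tested genes that were lower. After median-of-ratios scaling 0 of the 65 were called, against 0.599% of tested genes called lower. With the replicate number as a block 2 were called, against 33.8% of tested genes called lower. Ctrl 3 was the highest library in 60 of the 65, against 52.7% of tested genes. It was more than 2-fold above Ctrl 1 in 37, against 17.0%. Their median log2 fold change was -1.08, and without Ctrl 3 it was -0.54. By role, 1 of 17 receptors, 0 of 9 granule and secreted proteins, 2 of 21 signalling genes, 1 of 8 cytoskeletal genes and 2 of 10 transcription factors were called lower. At an unadjusted p-value under 0.05 in limma the counts were 4, 3, 8, 4 and 3 in the same order, against 56.5% of all tested genes. The excess in Ctrl 3 was least in the transcription factors, with a median of 0.34 on the log2 scale, and 1.32 in the receptors, 1.22 in the granule genes, 0.98 in the signalling genes and 1.19 in the cytoskeletal genes.

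Gp5, a chain that associates with the GPIb-IX complex, had 19.6 and 67.7 FPKM in Ctrl 1 and Ctrl 3 and 26.3 and 15.5 FPKM in Nar 1 and Nar 3 (log2 fold change -0.85, limma adjusted p = 0.286). Gp6, the collagen receptor, had 14.0, 37.3, 17.3 and 8.15 FPKM (log2 fold change -0.94, limma adjusted p = 0.222). In both, Nar 1 lay between the controls and Ctrl 3 was the highest, and without Ctrl 3 the log2 fold changes were 0.047 for Gp5 and -0.24 for Gp6. Among the lowest log2 fold changes of the wider list were -1.72 for Fcer1g and -1.57 for F2rl3, with limma adjusted p-values of 0.0358 and 0.0489, and without Ctrl 3 they were -1.30 and -0.89. Fcer1g, the signalling chain of Gp6, is also used by Fc receptors of leukocytes. Also called were Gng11, Nrgn and Fli1, which were not named by the rule and are given because the count is small. The highest were -0.01 for Zfpm1, -0.38 for Selp and -0.57 for Mafg, with limma adjusted p-values of 0.988, 0.524 and 0.182, and without Ctrl 3 they were 0.26, -0.18 and -0.68. Selp, the P-selectin of alpha granules, had 2.27 and 3.03 FPKM in Ctrl 1 and Ctrl 3 and 3.34 and 1.17 FPKM in Nar 1 and Nar 3, and was, like Plcg2, Mafg and Hhex, a gene in which Ctrl 3 was not the highest.

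Markers of other blood cells were examined beside the platelet genes, and their counts stand against 39.6% of all tested genes called lower, 56.5% lower at an unadjusted p-value under 0.05 and 0.599% called lower after median-of-ratios scaling. On the log2 scale the median difference between Ctrl 3 and Ctrl 1 was -0.29 for 12 neutrophil markers, -1.06 for 9 monocyte markers, -0.42 for 10 B cell markers, -0.39 for 8 T cell markers, -0.92 for 7 NK cell markers and 0.62 for 16 erythroid markers. All 12 neutrophil markers were lower with Nar in limma, with a summed FPKM of 1442 to 1746 in Ctrl and 106 to 165 in Nar, and 6 of the 12 were called after median-of-ratios scaling. S100a9 and S100a8, the most abundant of them, had limma adjusted p-values of 0.00427 and 0.00448. Of the monocyte markers 6 of 9 were lower, among them Ly6c2 (limma adjusted p = 0.00439), and 1 of 9 was called after median-of-ratios scaling. F13a1, which is also in the list of platelet granule genes, was 2.50-fold higher in Ctrl 3 than in Ctrl 1 and was not called (limma adjusted p = 0.097). The summed FPKM of the monocyte list was 104 to 107 in Ctrl and 15.2 to 36.0 in Nar. Without F13a1 it was 88.5 and 57.7 in Ctrl 1 and Ctrl 3 and 17.8 and 9.18 in Nar 1 and Nar 3.

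Of 10 B cell markers 0 were called, at an unadjusted p-value under 0.05 also 0, with sums of 34.4 to 47.6 FPKM in Ctrl and 34.8 to 35.0 in Nar and with Cd79a and Cd79b the most abundant. Of 8 T cell markers 0 were called in limma, 3 had an unadjusted p-value under 0.05, and the sums were 7.78 to 10.0 and 4.42 to 6.16 FPKM, with Lck and Cd8b1 the most abundant. Of 7 NK cell markers 2 were lower, one of them Gzma (limma adjusted p = 0.0322), while Nkg7 was not called (limma adjusted p = 0.13), and 0 were called after median-of-ratios scaling. The sums of the NK cell list were 22.5 to 24.0 FPKM in Ctrl and 5.31 to 10.96 in Nar. Of 16 erythroid markers 0 were called in limma and 0 were lower at an unadjusted p-value under 0.05. Their sums were 9385 to 11424 FPKM in Ctrl and 10478 to 11472 in Nar, led by Alas2 and Bpgm. Of 10 haemoglobin genes tested, 2 rose, which were Hba-a1 and Hba-a2 (limma adjusted p = 0.0348 each), against 0.187% of all tested genes called higher. After median-of-ratios scaling 4 of the 10 were called higher, against 0.187% of all tested genes called higher with that scaling. None was called lower, and Hbb-bs, the most abundant, was not called (limma adjusted p = 0.204). Hba-a1 and Hba-a2 are near-identical copies, so how reads were split between them is uncertain. No marker of these lists that had a value above the filter was listed at 0. The part of these cells in the platelet values was not tested.

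**Figure D5:**
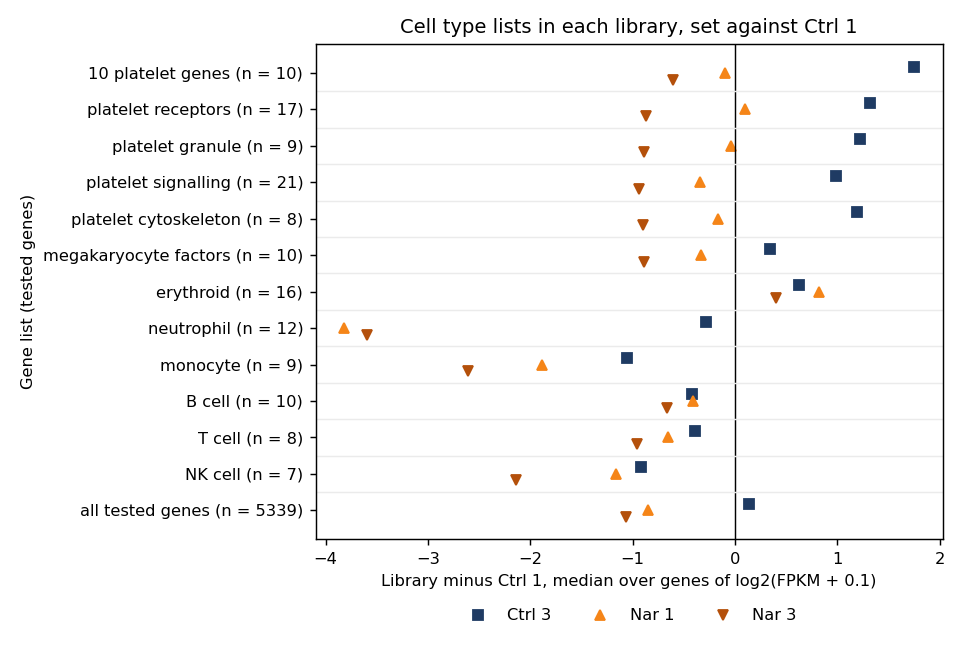
Median over the tested genes of each list of log2(FPKM + 0.1) in a library minus that in Ctrl 1, for Ctrl 3, Nar 1 and Nar 3. The platelet lists lie right of 0 in Ctrl 3 (1.75 for the 10 genes) and near or left of 0 in both Nar libraries, whereas neutrophil genes lie at -3.82 in Nar 1 and -3.60 in Nar 3.

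Outside all lists, the profile nearest to the mean of the 10 genes was sought among 991 genes whose mean was 5 FPKM or more, by the Euclidean distance of centred log2 values over the 4 libraries. The nearest were Rab6a at a distance of 0.0937, Mtmr14 at 0.106, Trafd1 at 0.111, 1110004F10Rik at 0.115 and Mpig6b at 0.117. The members themselves lay between 0.26 (Itga2b) and 0.67 (Itgb3) from their own mean. Mpig6b, a receptor of megakaryocytes and platelets, had 45.03 and 135 FPKM in Ctrl 1 and Ctrl 3 and 43.7 and 29.9 FPKM in Nar 1 and Nar 3. With 4 libraries, many genes can have a like profile.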

How the data were processed

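RNA-seq of blood from 2 Nar and 2 Ctrl libraries was used. The deposited table gives 1 FPKM value, to 2 decimals, for each gene and library, with each library in a column of its own and 0 columns left over. The methods name bowtie-2 for alignment to reference genes and DEGseq for testing, while the submitters' processing notes list TopHat2, Cufflinks and GRCm38, so how the FPKM values were computed is uncertain. DEGseq needs read numbers and could not be repeated. The deposited values multiplied by the length of the longest transcript showed no clear steps of single reads, so depth is unknown and no counting error is given.

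Values were compared on log2(FPKM + 0.1), which understates changes of low genes, over 5339 genes that averaged 0.5 FPKM or more. Tests used limma 3.58.1 in R 4.3.3 (lmFit, eBayes with a trend) with Benjamini-Hochberg adjustment over all tested genes, and the steps were tested on simulated data. Called means an adjusted p-value under 0.05. Single values were compared by exact permutation in scipy 1.17.1.

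The members and lists were chosen with earlier results of these data known. Named genes were the 10 members, Gp5, Gp6, the 3 lowest and 3 highest log2 fold changes of the wider platelet list, the 2 most abundant tested genes of each marker list, and the 5 nearest profiles. A gene that this rule names is not reported here. The settings varied were the pseudocount (0.01 or 1) and the filter (none, or 5 FPKM on average). The scaling was also varied (TPM, which sums to 1000000, haemoglobin genes taken out, or median-of-ratios). So were the trend in limma, a replicate block and each library left out. The set of tested genes was kept except where the filter was the alternative and where haemoglobin genes were taken out, which left 5329.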

Additional observations from a re-analysis of the deposited data

How the results depend on the processing

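No setting other than the crossed pairing called any of the 10 genes, and without the filter, or without either control, 0 of all tested genes passed, so those settings say nothing about stability. Of all tested genes 2123 were called, against 259 without Nar 1, 213 without Nar 3, 256 with haemoglobin genes removed, 42 after median-of-ratios scaling and 117 of 1083 genes that averaged 5 FPKM or more. For the 10 genes, the median log2 fold change was -0.57 with haemoglobin genes removed, 0.047 after median-of-ratios scaling, and ran from -2.10 to -0.39 over the fits that left out 1 library each, and it was 0.68 with that scaling and without Ctrl 3, chosen after the data were seen. Relative to all tested genes it was -0.50 with a pseudocount of 1, -0.55 without the filter, 0.038 with a pseudocount of 0.01, 0.048 with haemoglobin genes removed, 0.049 after median-of-ratios scaling and 0.65 with that scaling and without Ctrl 3, and ran from -0.91 to 0.56 over the fits without 1 library. Median-of-ratios scaling turned the sign of Ppbp (0.22), Gp1ba (0.34), Itga2b (0.066), Itgb3 (0.44), Treml1 (0.13) and Tubb1 (0.029), and leaving out Ctrl 3 that of Gp1ba, whose values without 1 library ran from -2.04 to 0.38. With both, the values were 0.50 for Pf4, 0.66 for Ppbp, 1.45 for Gp1ba, 0.76 for Gp1bb, 0.70 for Gp9, 0.67 for Itga2b, 1.04 for Itgb3, 0.55 for Clec1b, 0.67 for Treml1 and 1.01 for Tubb1. Groups did not overlap in 3 of the 10 genes with haemoglobin removed, against 54.1% of all genes with both Nar libraries lower, and in 0 after median-of-ratios scaling, against 20.8%. Of the wider platelet genes, 3 were called with a pseudocount of 1 (34.2% of all tested genes called lower), 2 of 45 with a mean FPKM of at least 5 (10.7%), 2 with the replicate block (33.8%), and 0 without the filter, with haemoglobin removed, after median-of-ratios scaling with or without Ctrl 3, and in each fit without 1 library.

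The deviations of same-numbered libraries from their group means had a correlation of -0.153 over genes, so the numbers were not taken to pair the libraries, and a shared batch or day was not tested. The replicate block called 0 of the 10, against 33.8% of all tested genes called lower. The crossed pairing, chosen after the data were seen, set Ctrl 1 with Nar 3 and Ctrl 3 with Nar 1. It called 8 of the 10 and 48 of the 65 wider genes, against 60.1% of all tested genes called lower. Ctrl 3 was the highest library in all 10 and Nar 3 lay below Nar 1 in 9, so this pairing joined high with high. Its calls are therefore no support. The cause of these changes was not tested. Depth is unknown, so no counting error can be set beside these values.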
